A study of Homo sapiens with 6 samples.

Results

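The de novo purine synthesis enzymes build the purine ring from phosphoribosyl pyrophosphate (PRPP), glutamine, glycine, aspartate, formyl-folate and carbon dioxide. The set described here holds 10 genes, PPAT, GART, PFAS, PAICS, ADSL, ATIC, GMPS, IMPDH1, IMPDH2 and PRPS1. They were taken by name as known enzymes of the pathway, not by their values, though earlier results of these data were known. All 10 were matched by Ensembl ID among the 60107 genes of the count table. All 10 passed the filter on low counts, which kept 22613 genes.

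The RNA came from the established human embryonic stem cell line H9, steered toward nephron progenitor cells. Both groups used this same line and protocol and were collected at the end of day 9. In 1 group, with 3 libraries, the medium was complete; in the other, also with 3 libraries, glutamine was left out from the start of the differentiation. The column headings of the count table name days 0 and 9, and each column was assigned through its sample's own description, which places the headings with day 0 in the group with glutamine. The labels do not say whether replicates were separate cultures, so p-values measure only the spread between these libraries.

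The pathway makes inosine monophosphate (IMP), which is then turned into AMP or GMP. Purines are needed for DNA, RNA, ATP and GTP, and dividing cells draw on this route in addition to salvage of preformed bases. Glutamine gives its amide nitrogen at the steps run by PPAT, PFAS and GMPS, so that these enzymes use the nutrient that was withheld. MYC family proteins, which bind the E-box CACGTG, are known activators of genes of this pathway.

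The libraries held 78220507 to 84746566 counts, and the mitochondrial genome took 2.49% to 2.702% of them. Replicate 1 with glutamine stood apart from its group: across genes, its log2 CPM correlated at Pearson's r of 0.9758 and 0.9762 with the others of that group, and at 0.9908 to 0.9927 with the libraries lacking glutamine; genes are not independent replicates. For that reason the fold changes of the enzymes are given with all libraries and with that library left out. Averaged over all 6 libraries, the 13 nephron progenitor markers were each at 1 CPM or more, a count scaled to the library's size. Of these, HOXD11 and HOXA11 averaged only 0.185 and 0.441 CPM with glutamine, and 4.87 and 4.12 CPM without. The 13 markers summed to 1721 CPM in replicate 1 with glutamine and to 1050 and 957 CPM in replicates 2 and 3 of that group. Without glutamine they summed to 1515 to 2102 CPM. The 6 somite and presomitic markers summed to 63.3, 189.8 and 193 CPM with glutamine and to 63.4 to 86.3 CPM without. Of the pluripotency genes, NANOG had 0 or 1 count and POU5F1 3 to 13 counts in a library. The others of that list were detected in every library. On average DPPA4 was at 141 CPM with glutamine and 246 CPM without, LIN28A at 263 and 136 CPM, SOX2 at 18.1 and 14.2 CPM and ZFP42 at 7.26 and 9.46 CPM. Of these, only SOX2 had overlapping groups. All 6 endoderm markers had a mean under 1 CPM.

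The sequences shown are start-site windows of genes that the results turn on, from 250 bases before to 50 bases after the start, taken from RefSeq on GRCh38.p14, with every E-box CACGTG in capitals. They comprise ATIC, which was lower without glutamine once replicate 1 with glutamine was left out, GMPS, a glutamine-using enzyme that was lower in the same fit, and the divergent start of PAICS and PPAT, which lay near 0. The windows are chr2:215311809-215312108 (plus strand) for ATIC, chr3:155870400-155870699 (plus strand) for GMPS and chr4:56435502-56435801 (plus strand) for PAICS.
ATIC: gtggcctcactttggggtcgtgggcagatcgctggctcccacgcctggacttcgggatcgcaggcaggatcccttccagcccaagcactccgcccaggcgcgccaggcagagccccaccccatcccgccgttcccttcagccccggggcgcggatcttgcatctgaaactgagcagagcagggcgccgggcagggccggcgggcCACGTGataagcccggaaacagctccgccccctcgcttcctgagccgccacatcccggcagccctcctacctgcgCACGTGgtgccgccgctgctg
GMPS: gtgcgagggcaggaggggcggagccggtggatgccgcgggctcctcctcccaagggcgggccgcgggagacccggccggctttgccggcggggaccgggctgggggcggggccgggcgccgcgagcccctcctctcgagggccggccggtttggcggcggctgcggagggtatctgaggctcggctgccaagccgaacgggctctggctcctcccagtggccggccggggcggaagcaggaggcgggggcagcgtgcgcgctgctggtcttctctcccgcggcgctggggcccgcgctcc
PAICS: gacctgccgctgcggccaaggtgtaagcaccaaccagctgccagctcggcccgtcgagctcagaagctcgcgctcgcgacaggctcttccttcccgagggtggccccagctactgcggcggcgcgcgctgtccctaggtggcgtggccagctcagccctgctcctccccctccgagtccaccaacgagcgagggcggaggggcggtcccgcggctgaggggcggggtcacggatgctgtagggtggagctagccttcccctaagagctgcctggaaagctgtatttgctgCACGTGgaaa

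The E-box was present at 2 places in the ATIC window, with its first base at positions -46 and 30 from the RefSeq start. The ATIC gene of GENCODE 29 starts farther upstream, at 215311817, so that both E-boxes, from 215312013 and from 215312088, lie inside it. In the PAICS window the E-box was present at 1 place, with its first base at position 41 after the RefSeq start. The PPAT window, chr4:56435566-56435865 on the minus strand, shares 236 bases with that PAICS window, and the same 6 bases, chr4:56435792-56435797, form its E-box. RefSeq windows were found for 8 of the 10 genes, 12 windows in all; none was found for ADSL and IMPDH2. Of these 12 windows, 3 held an E-box, 1 each of PPAT, PAICS and ATIC, and PPAT and PAICS share theirs. Over all 35116 windows of this length, 7.26% held an E-box. The C/EBP-ATF composite letters TGATGNAA, searched on both strands, were in none of the 12 windows and in 3.62% of all windows. The NRF1 motif was in 1 of them, another start of PAICS, and in 5.78% of all windows. Neither motif contains the E-box. A match is a description of the letters, not evidence of binding.

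With all 6 libraries, no enzyme of the pathway passed the test for a difference between the groups. IMPDH2 of the GMP branch had the largest difference, at 0.706-fold without glutamine, and GART the largest in the other direction, at 1.10-fold. The fitted value was higher without glutamine for 3 genes and lower for 7, with a median log2 fold change of -0.126, beside 0.001 over all genes tested. By edgeR's quasi-likelihood test with Benjamini-Hochberg adjustment over all genes, 0 of 10 had an adjusted p under 0.05 (were called), where 0.00442% of all genes did. At an unadjusted p under 0.05 there were 2, IMPDH2 and ATIC, both lower. That is near the background, since 15% of all genes were lower at that threshold and 14.7% higher. The groups did not overlap for 2 genes, IMPDH2 and PRPS1, both lower, near the 16.9% of all genes. DESeq2, run without the filter on low counts, called 1 of the 10, IMPDH2, and 7.13% of its 43005 genes.

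With replicate 1 with glutamine left out, 4 enzymes were called lower without glutamine: IMPDH2, ATIC, GMPS and IMPDH1. All 4 calls were in 1 direction, lower, in which that fit called 19% of all genes, beside 22.3% higher and 41.3% in either direction. Each library was left out in turn, and this fit is singled out because that library was nearer the other group, so its calls are not independent of that choice. Leaving out any other single library called 0 of the 10 enzymes. The median over the 10 was -0.165, beside 0.008 over all genes. Groups did not overlap for 7 of the 10, all lower, against 31.1% of all genes lower without overlap. Summed over the 10 genes, replicates 1, 2 and 3 with glutamine held 1883, 2162 and 2375 CPM, and those without held 1870, 2004 and 2013 CPM. Replicate 1 with glutamine was thus within the range of the libraries without glutamine for the sum. In bulk RNA, fewer cells of a type and less RNA per cell cannot be told apart.

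**Figure D1:**
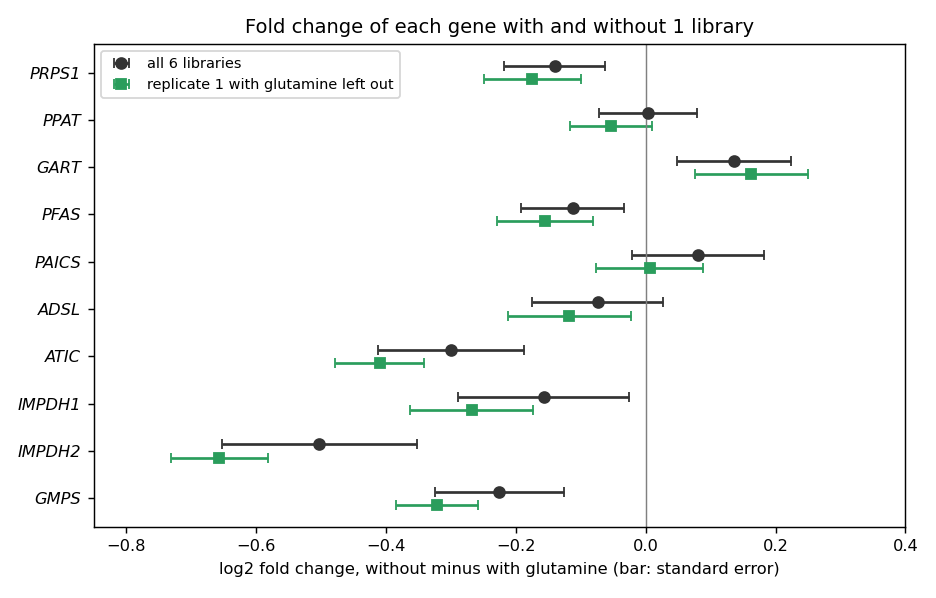
Log2 fold change of each of the 10 genes, without minus with glutamine (x axis), with its standard error as a bar, from all 6 libraries (circles) and with replicate 1 with glutamine left out (squares). IMPDH2 lies lowest in both fits, at -0.50 and -0.66, and GART highest, at 0.14 and 0.16.

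PRPS1 makes PRPP, the sugar phosphate on which the ring is built. Its gene is on chromosome X, from 107628424 to 107651026 on the plus strand, and this position and those below are from GENCODE 29 on GRCh38. Values are listed below in the order of replicates 1, 2 and 3. PRPS1 was at 165, 170 and 188 CPM with glutamine and at 150, 161 and 164 CPM without. The lowest library with glutamine was thus just above the highest without, by less than the spread inside either group. EdgeR gave a log2 fold change of -0.14 (SE 0.08, adjusted p by edgeR 0.260), and -0.17 (SE 0.07, adjusted p by edgeR 0.0888) with replicate 1 with glutamine left out.

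PPAT (chromosome 4, 56393362 to 56435615, minus strand) transfers the amide nitrogen of glutamine to PRPP, the committed step of the pathway. PPAT was at 85.7, 98.0 and 97.4 CPM with glutamine and at 93.4, 92.8 and 95.5 CPM without. Its group means were level, and replicate 1 with glutamine was the lowest of the 6 libraries. On the log2 scale the difference without minus with glutamine was 0.003 (SE 0.08, adjusted p by edgeR 0.981), and it turned to -0.05 (SE 0.06, adjusted p by edgeR 0.529) with that library left out. In that fit the libraries without glutamine were all below replicates 2 and 3 with it, by a small margin.

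GART (chromosome 21, 33503931 to 33543491, minus strand) carries several activities of the early ring assembly, among them the addition of glycine and of a formyl group. GART was at 171, 155 and 171 CPM with glutamine and at 164, 187 and 195 CPM without. The highest values were in 2 libraries without glutamine, and the third, replicate 1, was inside the range with glutamine. Its fitted log2 fold change was 0.14 (SE 0.09, adjusted p by edgeR 0.322) and 0.16 (SE 0.09, adjusted p by edgeR 0.166) with replicate 1 with glutamine left out. GART shares 275 of its 7751 exon bases with SON on the opposite strand, and SON was at 585 CPM with and 510 CPM without glutamine. The strand setting of the counting is not given in the sources used here.

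PFAS (chromosome 17, 8247618 to 8270491, plus strand) spends a further glutamine to convert FGAR to FGAM. It was at 135, 145 and 152 CPM with glutamine and at 143, 126 and 130 CPM without. The groups overlapped, because replicate 1 without glutamine was above replicate 1 with it. EdgeR gave a log2 fold change of -0.11 (SE 0.08, adjusted p by edgeR 0.365), and -0.15 (SE 0.07, adjusted p by edgeR 0.123) with replicate 1 with glutamine left out.

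PAICS carries out the carboxylation and the joining of aspartate that follow. Its gene (chromosome 4, 56435741 to 56464579, plus strand) stands head to head with PPAT, with 125 bases between their annotated starts. PAICS was at 506, 565 and 638 CPM with glutamine and at 556, 622 and 629 CPM without. The groups overlapped over most of their range. On the log2 scale the difference without minus with glutamine was 0.08 (SE 0.10, adjusted p by edgeR 0.612), and 0.006 (SE 0.08, adjusted p by edgeR 0.962) with replicate 1 with glutamine left out.

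ADSL (chromosome 22, 40346500 to 40390463, plus strand) releases fumarate here and again in the branch to AMP. ADSL was at 111, 115 and 131 CPM with glutamine and at 99.9, 120 and 119 CPM without. The groups overlapped. Its fitted log2 fold change was -0.07 (SE 0.10, adjusted p by edgeR 0.645), and -0.12 (SE 0.10, adjusted p by edgeR 0.354) with replicate 1 with glutamine left out. Of its 7111 exon bases, 1344 are shared with a gene on the same strand in GENCODE 29. That gene is not among the genes of the count table, so no reads were assigned to it. The part of its reads in the ADSL count is not known.

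ATIC (chromosome 2, 215311817 to 215349773, plus strand) adds the last formyl group and closes the ring to give IMP. ATIC was at 158, 197 and 211 CPM with glutamine and at 147, 159 and 154 CPM without. Replicates 2 and 3 with glutamine were above every library without it, whereas replicate 1 was inside the range without. EdgeR gave a log2 fold change of -0.30 (SE 0.11, adjusted p by edgeR 0.136). With that library left out ATIC fell by 0.41 on the log2 scale (SE 0.07, adjusted p by edgeR 0.00112).

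IMPDH1 and IMPDH2 are isozymes of the step that commits IMP to GMP. IMPDH2 (chromosome 3, 49024325 to 49029408, minus strand) is the form linked to proliferating cells. IMPDH2 was at 312, 425 and 479 CPM with glutamine and at 271, 295 and 292 CPM without. Each library with glutamine exceeded each one without, and the former were more spread, with 405 ± 85.3 CPM against 286 ± 12.7 CPM (SD, n = 3). On the log2 scale the difference without minus with glutamine was -0.50 (SE 0.15, adjusted p by edgeR 0.0930), and DESeq2 gave an adjusted p of 0.0318. With replicate 1 with glutamine left out IMPDH2 fell by 0.66 on the log2 scale (SE 0.07, adjusted p by edgeR 0.000114).

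The other isozyme, IMPDH1 (chromosome 7, 128392277 to 128410252, minus strand), was at 16.9, 20.6 and 23.3 CPM with glutamine and at 19.6, 18.0 and 16.9 CPM without. The groups overlapped, with replicate 1 with glutamine near the bottom. Its fitted log2 fold change was -0.16 (SE 0.13, adjusted p by edgeR 0.443). With that library left out IMPDH1 fell by 0.27 on the log2 scale (SE 0.09), at an edgeR adjusted p of 0.0452, close to the threshold. Reads of IMPDH1 can also match its processed pseudogenes, and IMPDH1P8 on chromosome 3 held 90, 133 and 114 counts with glutamine and 49, 57 and 43 without, in all 5.26% of the IMPDH1 counts. The treatment of reads with several alignments is not given in the sources used here, so the count of IMPDH1 is uncertain.

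GMPS (chromosome 3, 155870536 to 155944026, plus strand) ends the GMP branch and is the third enzyme of the set that uses glutamine. GMPS was at 223, 272 and 284 CPM with glutamine and at 227, 222 and 217 CPM without. The libraries without glutamine were close together, and replicate 1 with glutamine was among them. EdgeR gave a log2 fold change of -0.23 (SE 0.10, adjusted p by edgeR 0.178). With that library left out GMPS fell by 0.32 on the log2 scale (SE 0.06, adjusted p by edgeR 0.00306).

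**Figure D2:**
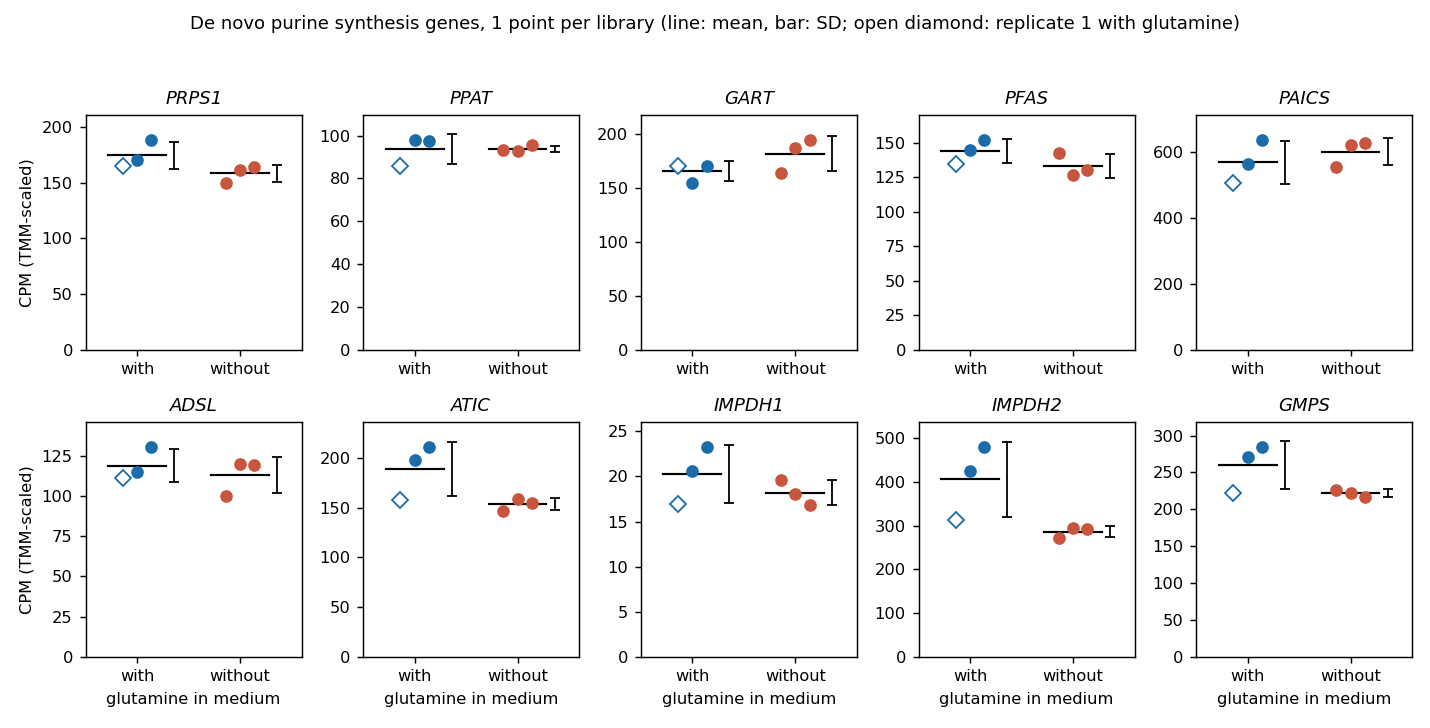
TMM-scaled CPM (y axis, from 0) of the 10 genes in each of the 6 libraries, by glutamine in the medium (x axis); lines are means and bars SDs of 3 libraries, and the open diamond is replicate 1 with glutamine. For ATIC, GMPS and IMPDH2 that diamond lies nearer the libraries without glutamine than replicates 2 and 3 do.

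The position of replicate 1 with glutamine recurred across the set. It was within the range of the libraries without glutamine for PFAS, ADSL, ATIC, GMPS, IMPDH1 and GART. It was between the groups for IMPDH2 and PRPS1 and the lowest of all 6 libraries for PPAT and PAICS. For GART it was also within the range of replicates 2 and 3 of its own group. The 18 proliferation genes summed to 4048, 3050 and 3279 CPM with glutamine and to 4375 to 4634 CPM without, so that the library also stood nearer the other group in these. The part of cell makeup and proliferation in the differences above was not tested.

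The 3 enzymes that use glutamine did not share 1 value. Their log2 fold changes were 0.003 for PPAT, -0.11 for PFAS and -0.23 for GMPS, with a median of -0.112, beside -0.14 over the other 7 enzymes. With replicate 1 with glutamine left out the medians were -0.155 and -0.175, and 1 of the 3, GMPS, and 3 of the 7 were called lower. That fit called 19% of all genes lower and 41.3% in either direction. Along the route, the steps from PPAT to ADSL held no called gene in either fit, while the 4 called in the smaller fit were ATIC and the enzymes of the GMP branch. Whether these differ from the earlier steps was not tested.

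Levels were compared between genes as CPM per kilobase of exon. IMPDH2 was highest in both groups, at 146 ± 30.8 with glutamine and 103 ± 4.58 without (SD, n = 3). PAICS followed at 75.8 ± 8.76 and 80.2 ± 5.33, and PRPS1 at 66.6 ± 4.63 and 60.4 ± 2.99. The ranges of PAICS and PRPS1 overlapped with glutamine and were apart without it. ATIC was at 48.0 ± 7.01 and 39.0 ± 1.57 and GMPS at 29.2 ± 3.67 and 25.0 ± 0.558. PFAS, GART, PPAT and ADSL were between 15.9 and 23.5 on average in either group. Among these, PFAS and GART overlapped in both groups, and PPAT and ADSL overlapped with glutamine, while GART also overlapped with GMPS in the absence of glutamine. IMPDH1 was lowest, at 5.54 ± 0.867 and 4.96 ± 0.378. The order in the middle depends on the gene model: by the length of the principal transcript, GART, at 47.4 with glutamine, stood above GMPS, at 29.7, and ATIC, at 85.3, above PRPS1, at 81.1. IMPDH2 stayed highest and IMPDH1 lowest with either length.

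Ratios of counts within a library need no scaling, and 3 were examined. The IMPDH1 count was 5.43%, 4.86% and 4.85% of the IMPDH2 count with glutamine and 7.23%, 6.11% and 5.78% without. The groups did not overlap, with the higher ratios in the absence of glutamine. The ratio of IMPDH1 to IMPDH2 was 1.26-fold higher without glutamine, a log2 difference of 0.332 (SE 0.111). An exact two-sided permutation test gave p = 0.1, the smallest that 3 against 3 allows, and 0.15 after Benjamini-Hochberg adjustment over the 3 ratios. With replicate 1 with glutamine left out the difference was 0.386.

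PRPS2 is the isozyme of PRPS1, and its fitted difference had the opposite sign. PRPS2 was at 21.7, 19.0 and 21.9 CPM with glutamine and at 25.2, 23.7 and 22.7 CPM without, a log2 fold change of 0.19 (SE 0.09, adjusted p by edgeR 0.205). The log2 ratio of PRPS1 to PRPS2 counts was 2.93, 3.16 and 3.11 with glutamine and 2.57, 2.77 and 2.86 without, so all libraries without were below all with. The difference was -0.335 (SE 0.110), with an exact permutation p of 0.1, again the smallest possible, and 0.15 adjusted, and it was -0.404 without replicate 1 with glutamine. PRPS1P2, a pseudogene of PRPS1, held 0.697% of the PRPS1 counts.

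PPAT and PAICS, which start from the shared stretch of chromosome 4 printed above, did not differ in their ratio beyond the spread. The PPAT count was 16.9%, 17.3% and 15.3% of the PAICS count with glutamine and 16.8%, 14.9% and 15.2% without. The log2 difference was -0.079 (SE 0.077), with an exact permutation p of 0.2, adjusted 0.2, and it was -0.060 without replicate 1 with glutamine. Per kilobase of exon PAICS was 4.4 times PPAT with glutamine and 4.64 times without. The multiple was smaller by the length of the principal transcript. By that length PAICS was at 87.92 and PPAT at 25.45 with glutamine, and at 92.98 and 25.51 without.

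**Figure D3:**
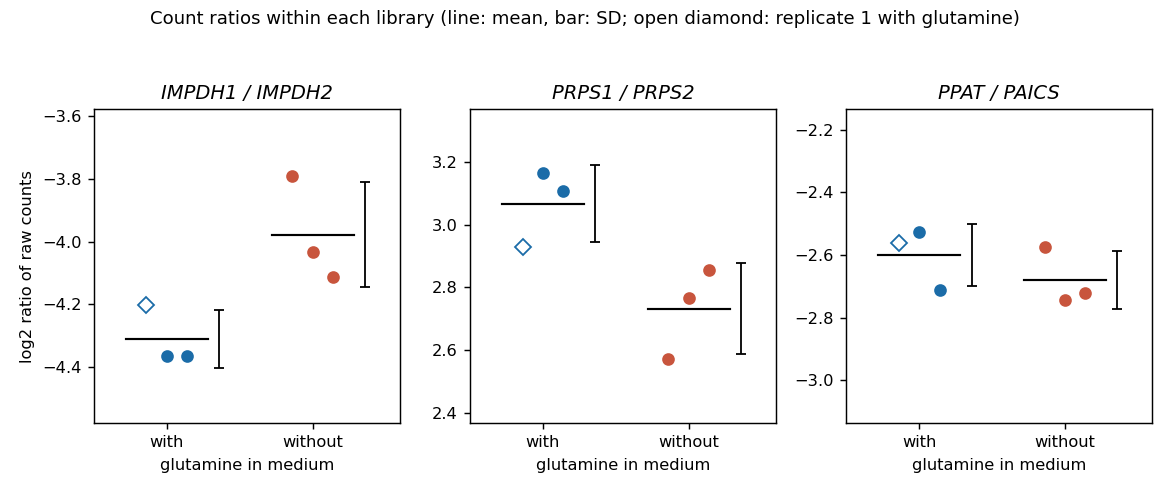
Log2 ratio of raw counts (y axis; each panel spans the same range of 1) for IMPDH1 to IMPDH2, PRPS1 to PRPS2 and PPAT to PAICS, 1 point per library, by glutamine in the medium (x axis), with means and SDs; the open diamond is replicate 1 with glutamine. The groups are apart in the isozyme panels and overlap in the panel of PPAT and PAICS.

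Other genes of purine metabolism were taken from lists by role. None of their genes had an edgeR adjusted p under 0.05 with all libraries, and counts without overlap between groups are read against 17.3% of all genes higher and 16.9% lower. At an unadjusted p under 0.05 by edgeR, 7 folate genes were higher and 1 lower, 2 salvage genes were higher, 1 breakdown gene was higher and 1 lower, 1 transporter was lower, 1 PRPP synthetase partner was higher, and none of the AMP branch was under it. The corresponding counts were 1 higher and 4 lower for the other glutamine enzymes, 1 higher for the regulators and 12 higher for the proliferation genes. At that threshold 14.7% of all genes were higher and 15% lower, and the counts are read against these shares. Of 9 genes of the AMP branch and nucleotide kinases, 2 were higher without overlap, ADSS2 among them, and 1 lower, ADSS1, with a log2 fold change of -0.19. ADSS2, which with ADSL leads IMP to AMP, had a log2 fold change of 0.13 (SE 0.07, adjusted p by edgeR 0.232).

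Of 7 salvage genes, 2 were higher without overlap and none lower, with a median log2 fold change of 0.121. PNP, which splits purine nucleosides into base and sugar, was at 42.5, 24.3 and 26.8 CPM with glutamine and at 43.5, 52.5 and 50.0 CPM without. Replicate 1 with glutamine was just under the lowest library without. Its log2 fold change was 0.64 (SE 0.21, adjusted p by edgeR 0.108), and with that library left out PNP rose by 0.93 (SE 0.10, adjusted p by edgeR 6.39e-05). DCK, a deoxynucleoside kinase, had a log2 fold change of 0.31 (SE 0.07, adjusted p by edgeR 0.0706). HPRT1, which salvages hypoxanthine and guanine, overlapped between groups, with means of 68.9 ± 5.73 CPM in complete medium and 76.0 ± 4.25 CPM in medium lacking glutamine (SD, n = 3).

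Of 13 genes of breakdown and interconversion, 11 were kept, 2 higher and 2 lower without overlap. ADA, adenosine deaminase, was at 7.73, 13.0 and 13.0 CPM with glutamine and at 6.84, 6.59 and 6.15 CPM without. Its log2 fold change was -0.79 (SE 0.21, adjusted p by edgeR 0.0808), and ADA fell by 0.99 in the fit without replicate 1 with glutamine (SE 0.09, adjusted p by edgeR 3.08e-05). ITPA, which clears ITP, had a log2 fold change of 0.24 and AMPD3, an AMP deaminase, of -0.23.

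Of 8 nucleoside and nucleobase transporters, 6 were kept, and SLC29A1, the equilibrative nucleoside transporter, was the only one without overlap. SLC29A1 was at 35.3, 93.7 and 90.0 CPM with glutamine and at 28.6, 27.7 and 25.5 CPM without. Replicates 2 and 3 with glutamine were far above the rest, and replicate 1 was near the libraries without. On the log2 scale the difference without minus with glutamine was -1.42 (SE 0.34, adjusted p by edgeR 0.0724). SLC29A1 fell by 1.75 with replicate 1 with glutamine left out (SE 0.07, adjusted p by edgeR 2.46e-07).

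The folate cycle supplies the formyl groups that GART and ATIC place in the ring. Of its 14 genes, 6 were higher without overlap and none lower, with a median of 0.132. ALDH1L2, a mitochondrial formyl-folate dehydrogenase, was at 7.12, 8.92 and 7.99 CPM with glutamine and at 14.1, 22.9 and 17.6 CPM without, a log2 fold change of 1.18 (SE 0.19, adjusted p by edgeR 0.0680). MTHFD2, a mitochondrial folate enzyme, was at 103, 94.4 and 106 CPM with glutamine and at 126, 157 and 150 CPM without, a log2 fold change of 0.52 (SE 0.10, adjusted p by edgeR 0.0682). For both, replicate 1 with glutamine was below every library without, and with it left out they rose by 1.11 and 0.53 (adjusted p by edgeR 0.000987 and 0.00244).

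Of 7 other enzymes that take the amide nitrogen of glutamine, 4 were lower without overlap and 1 higher, with a median log2 fold change of -0.228; none was called with all libraries. GFPT2 and GFPT1, which start the hexosamine pathway, had log2 fold changes of -0.72 (SE 0.18, adjusted p by edgeR 0.0747) and -0.37 (SE 0.12, adjusted p by edgeR 0.108). CAD and CTPS2 of pyrimidine synthesis, named after their values were seen, had -0.31 and -0.23. ASNS, asparagine synthetase, was the higher one, with a log2 fold change of 0.89 (SE 0.17, adjusted p by edgeR 0.0682). With replicate 1 with glutamine left out, edgeR called 6 of the 7, 4 lower and 2 higher. That fit called 19% of all genes lower and 22.3% higher.

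Of 5 known regulators, ATF4, a transcription factor of the amino acid response, was higher without overlap and MAX, the partner of MYC, lower. Their log2 fold changes were 0.33 (SE 0.08, adjusted p by edgeR 0.0772) and -0.09 (SE 0.07, adjusted p by edgeR 0.410). MYC was at 27.6, 64.6 and 68.2 CPM with glutamine and at 37.3, 35.0 and 31.6 CPM without. Replicate 1 with glutamine was the lowest of the 6 libraries, and the groups overlapped. Its log2 fold change was -0.63 (SE 0.31, adjusted p by edgeR 0.219), and MYC fell by 0.94 with that library left out (SE 0.08, adjusted p by edgeR 2.26e-05). MYCN was at a higher level, 169 ± 10.1 CPM in complete medium and 192 ± 18.8 CPM in medium lacking glutamine (SD, n = 3), with overlapping groups and a log2 fold change of 0.18 (SE 0.09, adjusted p by edgeR 0.219).

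All 18 genes of the proliferation list had a positive fitted value, with a median of 0.472, and 13 were higher without overlap between groups; none was called with all libraries. A difference between this list and the purine enzymes was not tested. RRM2, a subunit of ribonucleotide reductase, PCNA, the replication clamp, and CCNB1, a mitotic cyclin, had log2 fold changes of 0.86, 0.55 and 0.61, at edgeR adjusted p of 0.0689, 0.0689 and 0.0762. With replicate 1 with glutamine left out, edgeR called 15 of the 18, all higher, where 22.3% of all genes were called higher.

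**Figure D4:**
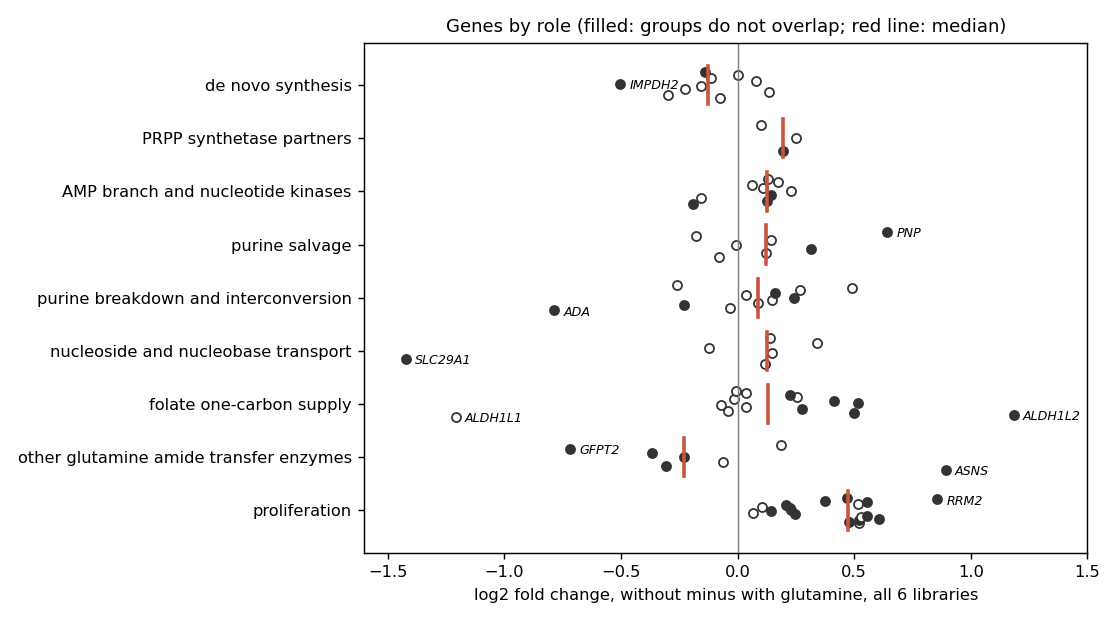
Log2 fold change, without minus with glutamine (x axis), of each kept gene by role (rows), from all 6 libraries; filled points are genes whose groups do not overlap, and red lines are medians. The de novo synthesis genes lie between -0.50 and 0.14, and SLC29A1 at -1.42 and ALDH1L2 at 1.18 lie farthest out among filled points.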

How the data were processed

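mRNA of 6 libraries (3 with glutamine, 3 without) was sequenced as stranded, single-end libraries on an Illumina HiSeq instrument, per the labels. The authors deposited raw counts per Ensembl gene, the basis of every test here, and a table of normalized counts, a signal equal to the raw count divided by 1 size factor per library (0.9766 to 1.078). Cutadapt, Trim Galore, FastQC, STAR 2.5.2b, DESeq2 and GRCh38 are named in the submitters' processing notes; annotation, counting mode and strand setting are not given in the sources used here.

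Symbols came from a table of gene names (56104 of 60107 IDs matched), and positions and exon lengths from GENCODE 29. Counts were tested with edgeR 4.0.16 in R 4.3.3 (filterByExpr, TMM, quasi-likelihood with legacy = FALSE and robust = FALSE, Benjamini-Hochberg over 22613 genes, threshold 0.05). CPM of the enzymes and list genes are TMM-scaled, and summed marker CPM are scaled to the total count only. The standard error is the absolute log2 fold change over the square root of F. Count ratios used log2(count + 0.5) and exact permutation. Alternatives were DESeq2 1.42.0, limma-voom (limma 3.58.1), other scalings and filters, edgeR's legacy and robust settings, a replicate block and leaving out each library. The genes, lists and tests were chosen with earlier results of these data known. Named in the text are all 10 enzymes, a fixed set of neighbours (PRPS2, HPRT1, ADSS2, MTHFD2, MYC and MYCN) and, per list, the 3 genes with the largest log2 fold change among those at 1 CPM or more in both groups and without overlap between groups. The values of 2 list members are not reported here. Neural, podocyte and tubule markers were also summed: 451 to 640 CPM for the 6 neural and 42.2 to 98.9 CPM for the 6 podocyte and tubule genes, and 350 to 464 CPM for the 6 pluripotency genes, over all libraries.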

Additional observations from a re-analysis of the deposited data

How the results depend on the processing

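The 16 alternatives gave 160 values for the 10 enzymes. Neither sign nor call changed in 151, a call was gained in 5 and lost in 0, and the sign changed in 4. The calls gained were IMPDH2, ATIC, GMPS and IMPDH1 without replicate 1 with glutamine, and IMPDH2 under DESeq2. PPAT reversed to -0.041 under upper quartile scaling and ran from -0.054 to 0.03 with 1 library left out, and ADSL ran from -0.118 to 0.011 there. The number of enzymes called was 1 under DESeq2 and 0 to 4 with 1 library left out. Lower enzymes at an unadjusted p under 0.05 numbered 2 in the reported fit, 4 under upper quartile scaling, 3 with library size only, 3 with no filter and 1 to 5 with 1 library left out. In the first 4 of these fits, 6718, 6923 and 6625 of 22613 genes and 8287 of 43046 were under it in either direction. With 1 library left out these ran from 3688 of 23089 to 11454 of 23164. The fit with 5 enzymes left out replicate 1 with glutamine, and 5416 of its 23164 genes were lower at that threshold. The median of the 10 ran from -0.17 to -0.12 under other methods and from -0.165 to -0.061 with 1 library left out, the latter without replicate 3 with glutamine. The number of genes called over all genes was 0 under upper quartile scaling, library size only, limma-voom and edgeR's legacy setting, 2 with no filter, 3065 under DESeq2 and 0 to 9573 with 1 library left out, the highest without replicate 1 with glutamine and 17 without replicate 1 of the group without glutamine. The cause was not tested. Upper quartile scaling moved the median of all genes to -0.043, the largest shift of a scaling. Same-numbered libraries did not deviate together (correlations of -0.021, 0 and 0.028), and the fit with the replicate block called 0 genes, with a median of -0.126 for the enzymes. With the replicate block the ratio differences were 0.332 for IMPDH1 to IMPDH2, -0.335 for PRPS1 to PRPS2 and -0.079 for PPAT to PAICS. With 1 library left out they ran from 0.238 to 0.4, from -0.404 to -0.254 and from -0.134 to -0.042; with 3 against 3 or fewer no ratio can pass the threshold.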
